A study of Mus musculus with 27 samples.

Results

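The genes described here make, salvage and modify nicotinamide adenine dinucleotide (NAD), and were followed in mouse tibialis anterior (TA) muscle after volumetric muscle loss (VML). They were chosen by symbol: Nmrk1, Nmrk2, Nampt, Nmnat1, Nmnat3, Nadk, Nnmt and Nnt, which are 8 symbols on 9 of the 54532 entries of the gene table, since Nnt has 2 entries. Nmrk2 fell at every time point, to its lowest mean at day 7. Of the 7 members that could be tested it alone was called at day 21, a call that was lost under 2 other scalings. At that day Nampt, Nmnat1 and Nnmt gained a call in 3, 2 and 1 of 15 other settings of the processing. Nampt, Nmnat1 and Nmnat3 fell at days 3 and 7, calls that were lost on a common FPKM sum, where Nmnat3 at day 7 changed sign. Nnmt rose at days 3 and 7, and so did Nadk, whose day 7 call was lost in 8 of the 11 fits that left out 1 sample.

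In this model 40% of the TA was excised from C57BL/6 mice, which were male and 8 weeks old. TA muscle was taken from uninjured mice (n = 5) and at day 3 (n = 5), day 7 (n = 6), day 14 (n = 6) and day 21 (n = 5) after injury, with no genetic change or drug named for any group. The record of the series describes the excision as unilateral and the study's methods describe it as bilateral. No label says that each sample is a separate animal, so p-values measure the spread between these 27 samples, which may be technical in part. Expression was measured by RNA sequencing as FPKM (fragments scaled by gene length and library depth), which allows levels of different genes to be compared per length. Gene positions are given on GRCm38.

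NAD is the electron carrier of glycolysis and of mitochondrial oxidation, and the substrate of sirtuins, PARPs and CD38. Muscle rebuilds it mostly by salvage. Nampt converts nicotinamide to nicotinamide mononucleotide (NMN) and is the rate-limiting enzyme of that route. The nicotinamide riboside kinases Nmrk1, expressed in many tissues, and Nmrk2, known for its expression in skeletal muscle, make NMN from nicotinamide riboside. Nmnat1 in the nucleus and Nmnat3 in mitochondria then turn NMN into NAD. Nadk phosphorylates NAD to NADP, Nnmt removes nicotinamide by methylation, and Nnt uses the mitochondrial proton gradient to make NADPH.

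The kinases of the pair differed strongly in level and course, so the sequence before each start is shown. Both come from RefSeq promoter windows on GRCm38.p6, shortened to the bases upstream of the first annotated exon, and capitals mark matches to CANNTG, the E-box core that reads the same on both strands. The Nmrk2 stretch is chr10:81202052-81202287 on the minus strand (236 bases, 58.5% G or C). For Nmrk1 it is chr19:18631766-18631949 on the plus strand (184 bases, 71.2% G or C).
Nmrk2: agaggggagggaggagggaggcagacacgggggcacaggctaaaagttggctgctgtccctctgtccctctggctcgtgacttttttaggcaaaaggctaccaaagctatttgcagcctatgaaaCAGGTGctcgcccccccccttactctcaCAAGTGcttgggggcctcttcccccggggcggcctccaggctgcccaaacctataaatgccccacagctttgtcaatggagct
Nmrk1: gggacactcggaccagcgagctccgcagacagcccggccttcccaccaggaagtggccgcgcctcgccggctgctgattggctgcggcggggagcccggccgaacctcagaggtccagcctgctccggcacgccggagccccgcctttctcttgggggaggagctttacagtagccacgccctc
Nmrk2 held 2 matches and Nmrk1 none. Among 32841 RefSeq promoter windows, 66.2% held at least 1 match in the 250 bases before the start, so a match is common. RefSeq windows were found for 6 of the 8 genes. The windows of Nadk held 2 and 1 matches to CANNTG, and those of Nmnat1, Nmnat3 and Nampt held 1 each. Nampt held CAGCTG, an E-box form found in 13% of windows, and AGGTCA (searched on both strands), the half-site of nuclear receptors, found in 14.0%. Neither letter string was in the windows of Nmrk1 or Nmrk2.

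Libraries held 14376395 to 24436763 reads in genes, with a median of 17398586. Of the cell type lists, muscle fibre markers had the highest summed level in each group, and macrophage and fibroblast markers rose after injury. Over 9 fibre markers such as Acta1 and Ckm, the summed level ran from 90164 to 107110 FPKM in uninjured muscle and from 23070 to 66931 at day 3, and 8, 5, 1 and 0 of the 9 genes were lower on days 3, 7, 14 and 21 (limma, adjusted p under 0.05; at day 21 also 0 at an unadjusted p under 0.05). Over 8 macrophage markers the sum ran from 30.7 to 41.5 FPKM in uninjured muscle, from 561 to 2967 at day 3 and from 54.4 to 98.1 at day 21, with 8, 7, 3 and 0 of the genes higher at days 3, 7, 14 and 21. The sum of 7 fibroblast markers ran from 57.2 to 143 FPKM uninjured, from 524 to 1029 at day 3 and from 151 to 264 at day 21, with 6, 6, 6 and 3 genes higher. Of 6 myoblast markers, 5, 4, 4 and 2 were higher on days 3, 7, 14 and 21, and their sum ran from 17.7 to 27.3 FPKM in uninjured muscle and from 43.7 to 127 at day 21, with no overlap. These lists moved with the members described below, and their part in those results was not tested. In whole muscle, fewer fibres and less RNA per fibre cannot be told apart.

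A pair of libraries stood apart from their groups in macrophage markers. The macrophage sum of day 3 replicate 5 was 561 FPKM against 1527 to 2967 in the others of that day, and that of day 7 replicate 5 was 2841 FPKM against 76.6 to 699. Without both, 7, 5, 3 and 1 members were called at days 3, 7, 14 and 21, against 6, 6, 2 and 1 with them. The pair was chosen with earlier results of these data known. Day 7 replicates 3 and 6 also differed from their group, with myoblast marker sums of 25.9 and 25.6 FPKM against 154 to 261 in the others. These values lay within the uninjured range of 17.7 to 27.3 FPKM. A fit without both of these samples was not run.

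Nmrk2 (ENSMUSG00000004939, chr10:81198170-81202051, minus strand) was the most abundant member in uninjured muscle. Its level there was 221, 175, 221, 237 and 197 FPKM in the 5 samples. At day 3 the samples read 104, 62.5, 71.0, 26.4 and 43.9 FPKM. At day 7 they ran from 15.6 over a median of 38.2 to 47.7 FPKM. Every injured sample lay under every uninjured sample, and the 6 samples of day 7 kept below the 6 of day 14, which ran from 51.1 over 65.7 to 77.2 FPKM. The samples of day 21 held 101, 85.8, 118, 63.2 and 58.8 FPKM, so that the highest of them reached 118 against a lowest uninjured value of 175.

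**Figure D1:**
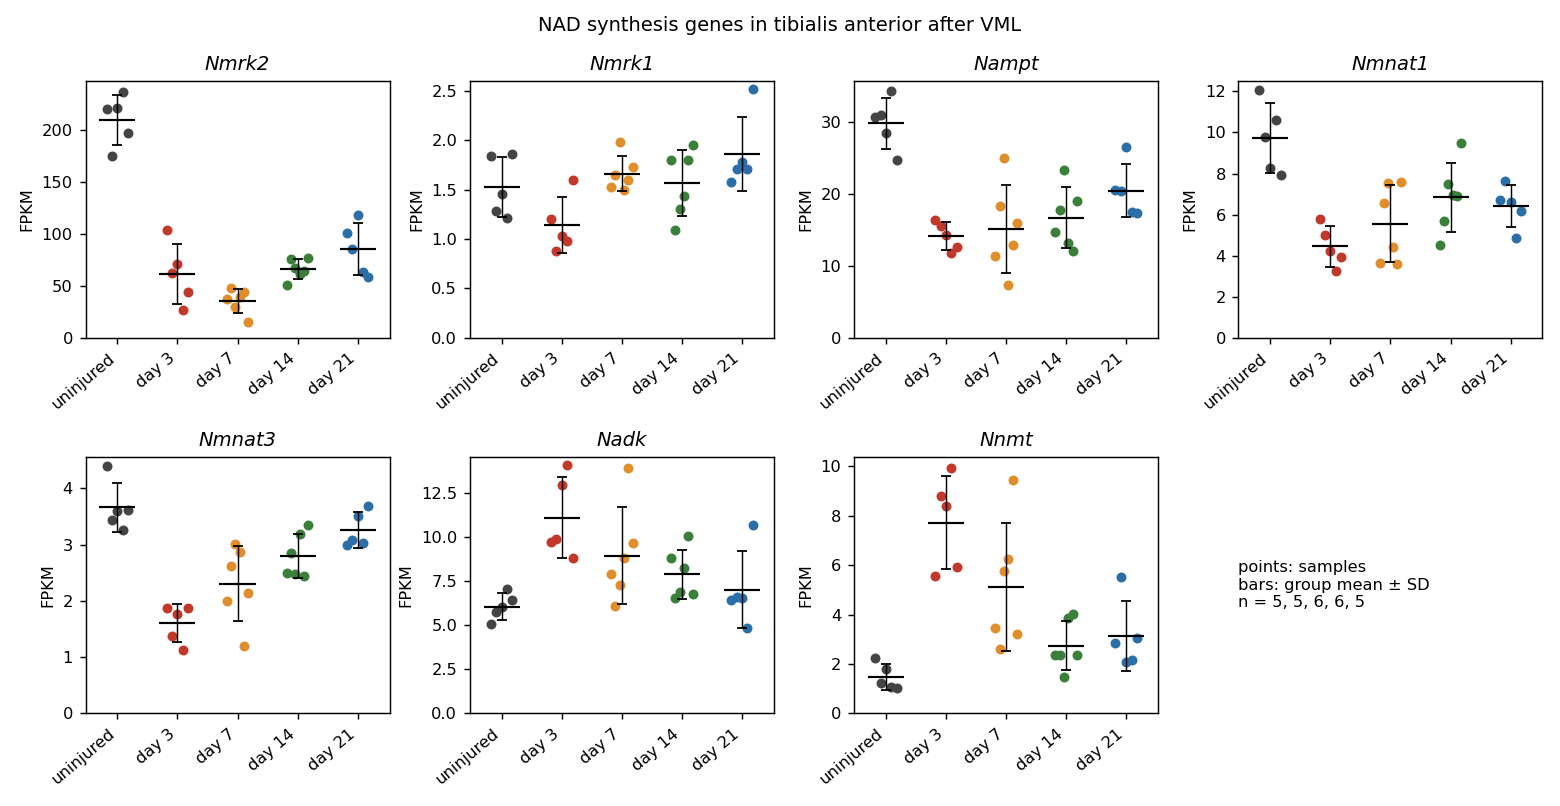
FPKM of the 7 members above the filter, by group, with each point a sample and bars the group mean ± SD (n = 5, 5, 6, 6 and 5). Nmrk2 samples after injury all lie under the lowest uninjured sample (175 FPKM), whereas Nmrk1 stays between 0.877 and 2.52 FPKM in all 27 samples.

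The uninjured mean of Nmrk2 was 210.2 ± 24.1 FPKM (SD, n = 5). After injury, in the order of days 3, 7, 14 and 21, the means were 61.6 ± 29.3 (n = 5), 35.6 ± 11.5 (n = 6), 66.2 ± 9.71 (n = 6) and 85.5 ± 25.2 FPKM (n = 5). These are 0.293, 0.169, 0.315 and 0.407 times the uninjured mean. On the log2(FPKM + 1) scale, which understates changes of low genes, the differences were -1.89 ± 0.28 (SE; adjusted p = 1.56e-05), -2.60 ± 0.27 (1.97e-06), -1.66 ± 0.27 (3.72e-04) and -1.33 ± 0.28 (0.0118), by limma with Benjamini-Hochberg adjustment over 14630 genes. By an exact two-sided permutation test Nmrk2 reached the smallest p the design allows at each day, 0.00794 for 5 against 5 and 0.00433 for 6 against 5. So did Nampt, Nmnat1, Nmnat3, Nadk and Nnmt at day 3, and Nmnat1 at day 21. At day 21 the same test gave 0.0159 for Nampt and 0.0238 for Nnmt. Over all tested members and days, 22 of 28 exact tests were under 0.05 without adjustment. Under 3 other settings of pseudocount or scaling the count ran from 15 to 22. The share of all tested genes under 0.05 by this test was not computed. Leaving out any single sample kept the limma call of Nmrk2 at day 21, with adjusted p from 0.0101 to 0.0354. It was lost at day 21 when samples were scaled to a common FPKM sum (-1.13, adjusted p = 0.216) or to their own read totals (-1.13, adjusted p = 0.0892).

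Between days 7 and 14 Nmrk2 was 0.94 higher on the log2 scale, with an adjusted p of 0.127 (limma), so it was not called although the groups did not overlap. Such a complete separation upward was seen for 0.239% of all tested genes. From day 3 to day 21 the difference was 0.56 (95% interval -0.03 to 1.14, adjusted p = 0.153). Leaving out day 3 replicate 1, which had the highest Nmrk2 of that day, brought it to 0.78 (adjusted p = 0.0444).

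Nmrk1 (ENSMUSG00000037847, chr19:18631950-18652194, plus strand) encodes the other riboside kinase. Its levels were low and close together, from 1.21 to 1.86 FPKM in uninjured muscle (median 1.45) and from 0.877 to 1.60 at day 3 (median 1.03). The later ranges were 1.49 to 1.98 (day 7), 1.09 to 1.95 (day 14) and 1.58 to 2.52 FPKM (day 21). All injured groups overlapped the uninjured one, and each value rested on 48 to 186 reads. No day was called against uninjured muscle: the log2 differences were -0.24 (adjusted p = 0.0937), 0.08 (0.622), 0.02 (0.931) and 0.18 (0.413) in limma. At day 3 the sign depended on the scaling, being -0.43 after quantile normalization (adjusted p = 0.00315) and 0.13 on own read totals, and leaving out day 3 replicate 5 gave -0.32 (adjusted p = 0.0323). At day 7 Nmrk1 was called higher on a common FPKM sum (0.53, adjusted p = 0.0117) and on own read totals (0.41, adjusted p = 0.0139), and was at -0.08 after quantile normalization. Nmrk1 was called higher at day 21 than at day 3 (0.42 ± 0.12, adjusted p = 0.00985), a call lost on own read totals (0.14, adjusted p = 0.422) and on a common sum (0.05, adjusted p = 0.845).

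The ratio of the kinases within a sample does not depend on how samples were scaled to each other. Nmrk2 over Nmrk1 was 119.9, 136, 152, 195 and 106 in the uninjured samples. It was 86.4, 71.2, 68.9, 26.8 and 27.4 at day 3, and 9.05 to 28.9 at day 7 (median 25.3). At day 14 it ran from 28.4 to 69.3 (median 41.2), and at day 21 it was 64.3, 50.3, 66.4, 36.9 and 23.4. No injured sample reached the lowest uninjured ratio of 106 at any day. The uninjured mean was 142 ± 34.3 (SD, n = 5), and those of days 3, 7, 14 and 21 were 56.1 ± 27.3 (n = 5), 21.9 ± 7.96 (n = 6), 44.5 ± 14.4 (n = 6) and 48.3 ± 18.3 (n = 5). Reads of Nmrk2 and of the antisense gene Atcayos, which share 270 of the 1854 exon bases of Nmrk2 (14.6%), cannot be told apart in libraries that did not keep strand.

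**Figure D2:**
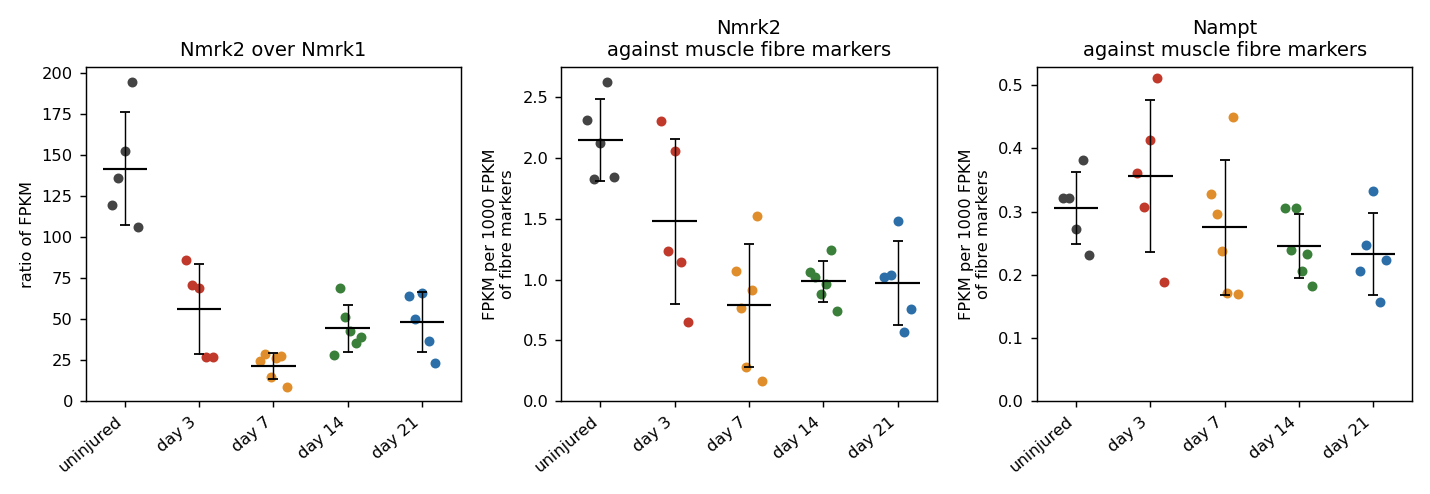
Ratios formed within each sample, by group: Nmrk2 FPKM over Nmrk1 FPKM, and Nmrk2 and Nampt FPKM per 1000 FPKM of summed muscle fibre markers, with points as samples and bars as mean ± SD. The first ratio stays under 106 in every injured sample, while Nampt against fibre markers overlaps the uninjured range (0.231 to 0.381) at each day.

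Set against the fibre markers, Nmrk2 lay under the uninjured range from day 7 on, while Nampt overlapped it at each day; the difference between the genes was not tested. Per 1000 FPKM of summed fibre markers, Nmrk2 ran from 1.82 to 2.62 FPKM in uninjured muscle and from 0.656 to 2.30 at day 3, which overlapped. On days 7 (0.166 to 1.52), 14 (0.740 to 1.24) and 21 (0.567 to 1.48) it lay under the whole uninjured range. With Ckm alone in place of the list, day 7 still lay under the uninjured range (6.35 to 28.5 against 35.9 to 77.4 FPKM per 1000 FPKM of Ckm), but day 14 (24.6 to 69.4) and day 21 (18.1 to 40.5) overlapped it. The lowest values came from day 7 replicates 3 and 6, at 0.286 and 0.166 FPKM per 1000 of fibre markers. In this pair of samples the fibre marker sum was 104774 and 94099 FPKM, within the range of uninjured muscle, while Nmrk2 was 29.9 and 15.6 FPKM. Replicate 6 also held a Schwann cell marker sum of 793 FPKM, against 2.43 to 157 in all other samples.

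Nampt (ENSMUSG00000020572, chr12:32819545-32853349, plus strand), the enzyme that limits nicotinamide salvage, was at 30.7, 30.9, 28.4, 34.3 and 24.7 FPKM in uninjured muscle. At day 3 it was at 16.3, 15.6, 14.3, 11.8 and 12.6 FPKM, all under the uninjured samples. Day 7 was wider, from 7.33 over 14.5 to 24.9 FPKM, and its replicate 3 overlapped the lowest uninjured value. Day 14 ran from 12.03 over 16.2 to 23.4 FPKM, under every uninjured sample, and day 21 from 17.3 over 20.4 to 26.5, with an overlap. The log2 differences were -1.03 ± 0.21 (SE; adjusted p = 4.35e-04), -1.01 ± 0.21 (0.00104), -0.83 ± 0.21 (0.00683) and -0.53 ± 0.21 (0.165) at days 3, 7, 14 and 21 (limma). The call at day 3 was lost on own read totals (-0.39, adjusted p = 0.0839), and so was that at day 14 (-0.44, adjusted p = 0.0848), which was also lost on a common sum (-0.37, adjusted p = 0.243). Against fibre markers Nampt averaged 0.305 ± 0.0566 FPKM per 1000 (SD, n = 5) in uninjured muscle and 0.356 ± 0.12 at day 3 (n = 5), and injured and uninjured samples overlapped at each day.

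Nmnat1 (ENSMUSG00000028992, chr4:149467572-149485202, minus strand), the nuclear NMN adenylyltransferase, was at 12.1, 9.78, 8.25, 10.6 and 7.94 FPKM in uninjured samples and at 5.81, 5.01, 4.21, 3.27 and 3.95 at day 3. At day 7 it ran from 3.59 over 5.48 to 7.61 FPKM and at day 21 from 4.86 over 6.62 to 7.64, on both days under every uninjured sample, while day 14 (4.53 to 9.50) overlapped. It was called lower at day 3 (-0.98 ± 0.19, adjusted p = 2.10e-04) and day 7 (-0.75 ± 0.18, adjusted p = 0.00386), the latter lost on own read totals (-0.27, adjusted p = 0.0991). It was not called at day 14 (-0.47, adjusted p = 0.0694) or day 21 (-0.53, adjusted p = 0.112) in limma. Leaving out day 14 replicate 6, the highest of its group, gave -0.56 (adjusted p = 0.0332).

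Nmnat3 (ENSMUSG00000032456, chr9:98287435-98420438, plus strand), known as the mitochondrial form, was at 4.40, 3.44, 3.59, 3.26 and 3.62 FPKM in uninjured muscle and at 1.88, 1.38, 1.76, 1.13 and 1.87 at day 3. Later samples ran from 1.205 to 3.00 FPKM (day 7), 2.44 to 3.34 (day 14) and 2.98 to 3.69 (day 21). Days 3 and 7 lay under every uninjured sample and days 14 and 21 overlapped them. The log2 differences were -0.84 ± 0.13 (SE; adjusted p = 2.39e-05), -0.52 ± 0.13 (0.00399), -0.30 ± 0.13 (0.0959) and -0.13 ± 0.13 (0.630) in limma. All samples of day 21 were above all of day 3, by 0.72 ± 0.13 (adjusted p = 3.65e-04, limma). On own read totals the day 7 call was lost (-0.11, adjusted p = 0.52). On a common FPKM sum the day 7 difference turned to 0.02, and the difference between days 21 and 3 fell to 0.29 (adjusted p = 0.209).

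Nadk (ENSMUSG00000029063, chr4:155562378-155591001, plus strand), the cytosolic NAD kinase, was at 5.05, 5.74, 6.03, 7.07 and 6.42 FPKM in uninjured muscle. Day 3 held 9.72, 9.87, 12.98, 14.1 and 8.83 FPKM, all above the uninjured samples, and days 7 (6.11 to 13.9), 14 (6.56 to 10.04) and 21 (4.83 to 10.7) overlapped them. Nadk rose by 0.76 ± 0.18 on the log2 scale at day 3 (adjusted p = 0.00137) and by 0.46 ± 0.17 at day 7 (adjusted p = 0.0457), and was not called at day 14 (0.33, adjusted p = 0.184) or day 21 (0.15, adjusted p = 0.676), in limma. The day 7 call was lost in 8 of the 11 limma fits that left out 1 sample, with adjusted p from 0.0207 to 0.135. It was weakest without day 7 replicate 5, whose macrophage sum stood apart (0.34). It was also lost with no filter on low values (adjusted p = 0.0872). From day 3 to day 21 Nadk fell by 0.61 (adjusted p = 0.0152, limma), which was lost without day 3 replicate 4 (-0.52, adjusted p = 0.0592) or day 21 replicate 4 (-0.50, adjusted p = 0.0528).

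Nnmt (ENSMUSG00000032271, chr9:48591877-48605153, minus strand), which methylates nicotinamide and so takes it out of salvage, had the largest increase among the members. It was at 2.24, 1.22, 1.78, 1.08 and 1.04 FPKM in uninjured muscle, on 21 to 47 reads a sample. At day 3 it stood at 5.56, 8.81, 8.39, 9.94 and 5.93 FPKM, above every uninjured sample, and day 7 did so too, from 2.60 over 4.61 to 9.44. Days 14 (1.46 to 4.03 FPKM) and 21 (2.08 to 5.53) overlapped the uninjured range. Mean levels were 5.25, 3.48, 1.86 and 2.13 times the uninjured mean at days 3, 7, 14 and 21. The log2 differences were 1.82 ± 0.26 (SE; adjusted p = 7.02e-06), 1.23 ± 0.25 (9.37e-04), 0.58 ± 0.25 (0.0936) and 0.71 ± 0.26 (0.118), in limma. Between days 3 and 21 Nnmt fell by 1.11 (adjusted p = 0.00258, limma), with no overlap of the samples. Without day 14 replicate 3 the day 14 difference was 0.69 (adjusted p = 0.0482).

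The ratio of the Nnmt and Nampt transcripts within a sample does not depend on the scaling between samples, and says nothing of enzyme activity or NAD levels. This ratio ran from 0.0315 to 0.073 in uninjured muscle. On day 3 it was 0.341 to 0.843, on day 7 0.142 to 0.853, on day 14 0.0623 to 0.335 and on day 21 0.0785 to 0.271. Days 3, 7 and 21 lay above every uninjured sample, and only day 14 replicate 3 (0.0623) fell back into their range. How Nnmt related to the marker sums within a day was not tested. In day 7 replicates 1 to 6, Nnmt was at 3.45, 2.60, 5.77, 6.25, 9.44 and 3.21 FPKM. Fibroblast sums there were 945, 701, 643, 1376, 677 and 334 FPKM, and macrophage sums 363, 383, 201, 699, 2841 and 76.6 FPKM. For day 3 replicates 1 to 5, whose Nnmt levels are given above, fibroblast sums were 524, 636, 696, 685 and 1029 FPKM. Their macrophage sums were 1983, 1527, 2740, 2967 and 561 FPKM.

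The full level of Nnt could not be read from this table, though the reads counted on it were very few. Its 2 entries, ENSMUSG00000025453 and ENSMUSG00000116207, lie on top of each other on the minus strand of chromosome 13, at chr13:119335448-119408997 and chr13:119335528-119408952. All 3339 exon bases of the shorter entry belong to the longer one too, which leaves 3698 bases of the longer entry on its own. The shorter entry was at 0 in all 27 samples and the longer one held 0 to 20 reads, 128 in all, with at most 0.152 FPKM. In the 9 samples at 0, a floor of 3 reads over all 7037 bases of the longer entry would equal 0.0188 to 0.0382 FPKM, for counting error only. Over its unshared bases alone the floor would be higher. How reads in bases shared by 2 genes were counted is not given in the sources used here. As background, the C57BL/6J substrain carries a deletion within Nnt, and the labels name C57BL/6 without a substrain.

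**Figure D3:**
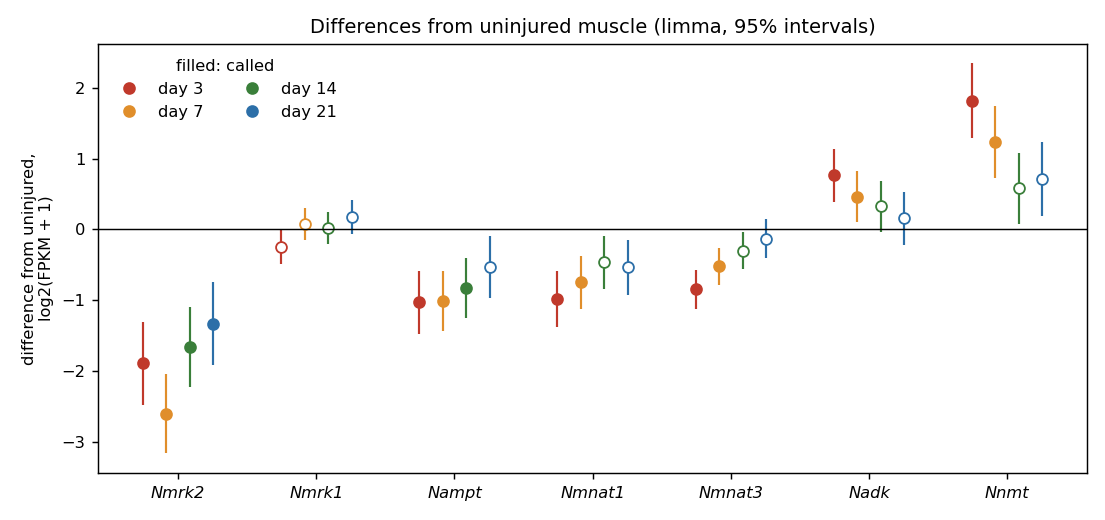
Differences from uninjured muscle in log2(FPKM + 1) with 95% intervals for 7 members at 4 days after injury, filled where the adjusted p was under 0.05 (limma). Nmrk2 is filled at all 4 days (-1.89, -2.60, -1.66 and -1.33), Nampt at days 3, 7 and 14, and Nmnat1, Nmnat3, Nadk and Nnmt at days 3 and 7.

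In all, 6 of the 7 tested members were called at day 3 (2 higher, 4 lower), where 43.2% of all tested genes were called (23.4% higher, 19.8% lower). On day 7 it was 6 (2 higher, 4 lower), beside 29.4% of all genes (15% higher, 14.4% lower). On day 14 it was 2, both lower, beside 20.3% (9.02% higher, 11.3% lower), and on day 21 it was Nmrk2 alone, lower, beside 3.43% (1.74% higher, 1.69% lower). The median log2 difference over the 7 members was -0.84, -0.52, -0.30 and -0.13 at days 3, 7, 14 and 21, beside 0.01, 0.03, 0.02 and 0.01 over all tested genes. Between day 3 and day 21, 4 members were called (Nmrk1 and Nmnat3 higher, Nadk and Nnmt lower), against 25.5% of all genes (9.23% higher, 16.2% lower). Day 21 lay wholly above day 3 for 2 members, Nampt and Nmnat3 (6.93% of all genes), and wholly below for Nnmt (12.2%). Samples of a time point wholly below the uninjured samples were found for 4 members on day 3 (16.5% of all genes), 3 on day 7 (5.37%), 2 on day 14 (8.05%) and 2 on day 21 (5.13%). Wholly above were 2 members at day 3 (19.8%) and 1 at day 7 (7.25%). No member was called between days 3 and 7 (0.0478% of all genes), days 7 and 14 (0.335%) or days 14 and 21 (0%). For these steps limma with voom weights on reads recovered from FPKM also called 0. In the main limma fit on log2(FPKM + 1), 4, 2 and 0 members had an unadjusted p under 0.05. The share of all tested genes under that unadjusted threshold was not computed. Between days 3 and 7, however, sample quality weights called 3 members, and leaving out day 3 replicate 5 and day 7 replicate 5 together called 4.

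The scaling of the deposited values bears on these directions. On own read totals the median tested gene stood at 0.40 at day 3 in log2 difference, and on a common FPKM sum at 0.51, instead of 0.01. Nampt was then at -0.39 and -0.24, Nmnat1 at -0.41 and -0.27, and Nmnat3 at -0.38 and -0.27, all still under the median gene. On a common sum none of the 3 was called at day 3 (adjusted p = 0.386, 0.141 and 0.219) or day 7 (0.216, 0.506 and 0.921), in limma. The counts of higher and lower members called at day 3 were 2 and 3 on own totals, 2 and 1 on a common sum, and 2 and 5 after quantile normalization. At day 7, in place of 2 higher and 4 lower, they were 3 and 2 on own totals, 3 and 1 on a common sum, and 2 and 4 after quantile normalization. Nmrk2 was lower and Nadk and Nnmt were higher at day 3 under each of these scalings, with adjusted p under 0.05.

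**Figure D4:**
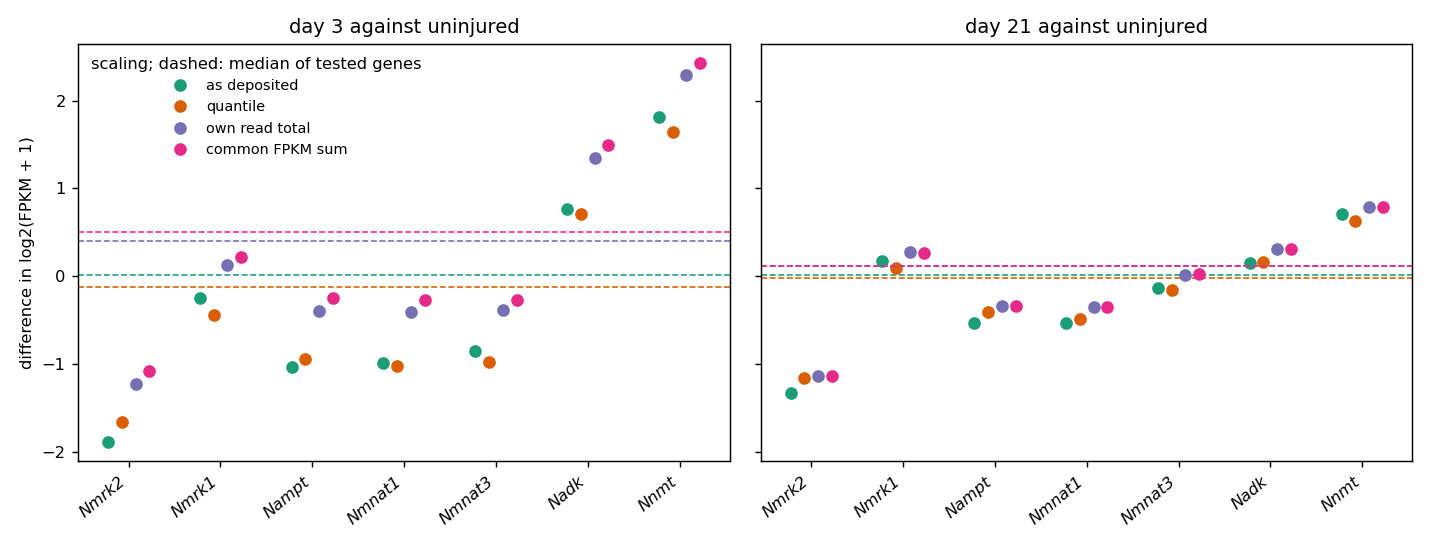
Differences from uninjured muscle in log2(FPKM + 1) at days 3 and 21 for 7 members under 4 scalings of the samples, with dashed lines at the median of all tested genes under each. At day 3 the lines lie at 0.01, -0.12, 0.40 and 0.51, and Nmrk2 is lowest and Nnmt highest under every scaling.

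By correlation over the 27 samples on the log2 scale, the genes most like Nmrk2 were Nr1d1 (r = 0.917), Gm33543 (0.865) and Acadl (0.858). Nampt was closest to Coa7 (0.929), Acat1 (0.926) and Adssl1 (0.922), Nmnat1 to Ech1 (0.939), Pla2g16 (0.933) and Eci1 (0.923), and Nmnat3 to Ndufa10 (0.893), Clybl (0.889) and Tmem70 (0.887). Nadk lay closest to Mast3 (0.919), Ganab (0.918) and Wipf1 (0.914), and Nnmt to Csrp2 (0.931), Rab3il1 (0.926) and Emp3 (0.916). The best match of Nmrk1 was weaker, Atg2a at 0.787. Between the members, r was 0.793 for Nampt and Nmnat1 and 0.755 for Nadk and Nnmt, and -0.05 for Nmrk1 and Nmrk2. These samples fall into groups by time and share their scaling, so the values describe the set and carry no test.

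Other genes of NAD metabolism were taken as a list of 52, of which 39 passed the filter on low values. Among the 39, 12 rose and 12 fell on day 3, 6 rose and 12 fell on day 7, 3 rose and 8 fell on day 14, and 1 rose on day 21. These counts stand beside the shares of all tested genes given above for the members. The called changes of largest size at day 3 on the log2(FPKM + 1) scale were in Me2, Mthfd2 and G6pdx. This scale understates changes of low genes such as Bst1. Me2, a mitochondrial malic enzyme, was 1.99 higher on the log2 scale (adjusted p = 3.96e-05), Mthfd2, a mitochondrial folate enzyme, 1.93 higher (1.95e-05), and G6pdx, the entry enzyme of the pentose phosphate route, 1.90 higher (2.17e-05), in limma. Of 8 genes listed together as NADPH enzymes, 5 rose at day 3 (these and Pgd and Idh1) and 3 fell (Idh2, Me1 and Me3). The 3 that fell were lower at days 7 and 14 too. Which cofactor each enzyme uses was not measured, so the count does not measure NADPH supply.

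De novo synthesis from tryptophan was hardly measurable: 2 of its 9 genes (Haao and Qprt) passed the filter, and no day was called for either. The nicotinic acid genes Naprt and Nadsyn1 were not called at any day, and Nmnat2, the third NMN adenylyltransferase, stayed under the filter with at most 0.271 FPKM. Nadk2, the mitochondrial NAD kinase, went the other way from Nadk: its log2 difference was -0.76 at day 3 (adjusted p = 2.86e-04) and -0.70 at day 14 (0.00223), in limma. Slc25a51, the mitochondrial NAD carrier, was called lower at days 3, 7 and 14 (-0.56 at day 3, adjusted p = 0.00198, limma). Values of this pair are given after they were seen. Among 12 tested NAD-consuming enzymes, Sirt2, Sirt3 and Sirt5 fell and Sirt7 and Bst1 rose at day 3, which is 5 of 12 beside 43.2% of all tested genes and so near the background. Slc29a1, a nucleoside transporter, was higher by 0.66 at day 3 (adjusted p = 0.00398) and was the 1 gene of the list called at day 21 (0.69, adjusted p = 0.029), in limma. The day 21 call of Slc29a1 was lost with no filter, on a common FPKM sum and on own read totals, where 0 genes of the list were called, and without any of uninjured replicates 1, 2, 4 and 5 or day 21 replicates 2 and 5.

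**Figure D5:**
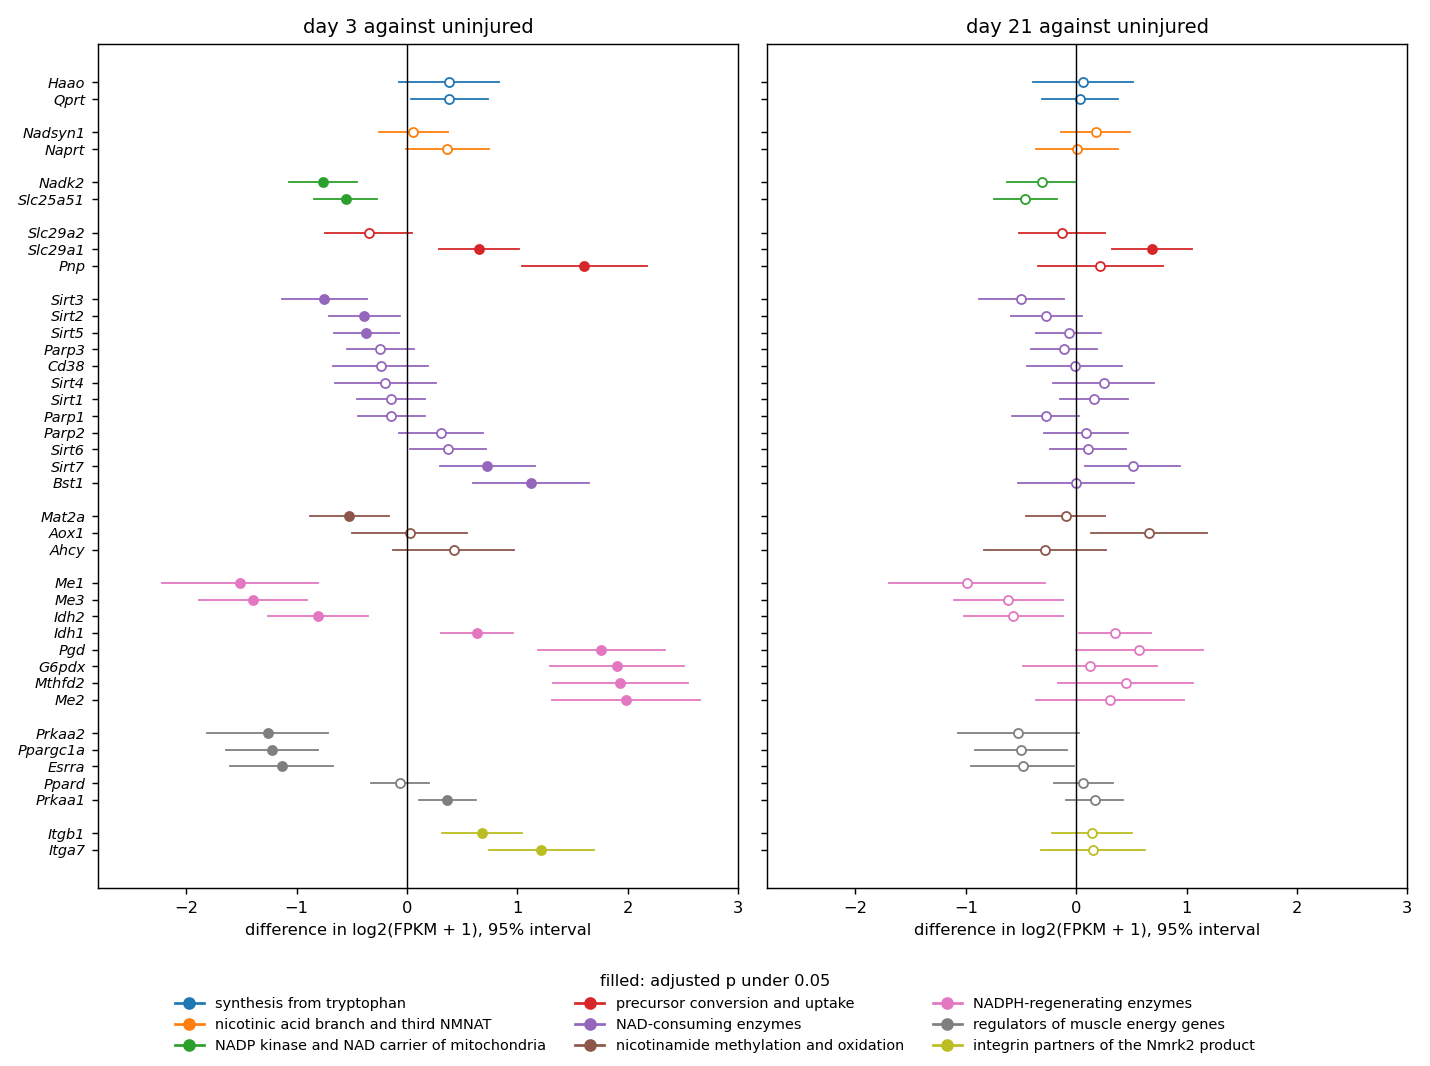
Differences from uninjured muscle in log2(FPKM + 1) with 95% intervals at days 3 and 21 for the 39 tested genes of NAD metabolism and its partners, coloured by group and filled where the adjusted p was under 0.05 (limma). At day 3, 24 genes are filled, with Me2, Mthfd2 and G6pdx farthest to the right; at day 21 only Slc29a1 is filled.

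Of 5 tested regulators of muscle energy genes, 3 fell and 1 rose at day 3, where 43.2% of all tested genes were called (23.4% higher, 19.8% lower). Ppargc1a, a coactivator of mitochondrial genes, was at -1.22 (adjusted p = 4.54e-05), Esrra, the nuclear receptor it works with, at -1.13 (3.02e-04), and Prkaa2, a catalytic subunit of AMP kinase, at -1.26 (4.88e-04), on the log2 scale in limma. All 3 were also lower at days 7 and 14, and at day 21 they were at -0.50 (adjusted p = 0.168), -0.48 (0.234) and -0.52 (0.275). Prkaa1, the other catalytic subunit, was 0.36 higher at day 3 (adjusted p = 0.0213), Ppard was at -0.06 (0.724), and Ppara stayed under the filter with at most 0.446 FPKM. The product of Nmrk2 is also known as a muscle protein that binds integrin. Its partners Itga7 (1.22, adjusted p = 1.75e-04) and Itgb1 (0.68, adjusted p = 0.00289) were higher at day 3, and at day 21 they were at 0.15 each (adjusted p = 0.752 and 0.683), in limma.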

How the data were processed

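Total RNA of TA muscle was sequenced from poly-A selected libraries that did not keep strand. The authors aligned reads with HISAT2 2.0.5, counted them per gene with featureCounts 1.5.0-p3 and deposited FPKM for 27 samples. How FPKM was normalized is not given in the sources used here. FPKM times gene length was whole (within 0.01 reads) for 100% of values in every library. The reads to which libraries had been scaled were proportional to median-ratio size factors. They were 0.747 to 1.48 times the libraries' own totals. The mean of this ratio to own totals was 0.782 in uninjured muscle and 1.25, 1.18, 1.04 and 0.897 in the order of days after injury.

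Groups came from sample titles. Genes with at least 0.5 FPKM in at least 5 samples (14630) were fitted as log2(FPKM + 1) with limma 3.58.1 in R 4.3.3, all groups in 1 fit with a variance trend, two-sided, with Benjamini-Hochberg adjustment within each comparison at 0.05. The fit was tested on simulated data. Exact permutation tests used scipy 1.17.1, and figures matplotlib 3.10.9. Gene positions follow GRCm38; 98.3% of entries had the same coordinates in GENCODE M21. Alternatives changed the pseudocount, filter, scaling, weights, samples and replicate block.

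The members and all gene lists were chosen with earlier results of these data known. Named were all members, the 3 called pathway genes of largest size at day 3, any called at day 21, every regulator and integrin partner, and the 3 genes that correlated best with each member. Cell type lists not given in the report were read too: 3 of 3 tested neutrophil markers were higher at day 3 and 2 at day 7, 2 of 5 endothelial markers were lower at day 3 (Kdr at every day), 3 of 4 tested adipocyte markers were higher at day 7, and no T cell (1 tested) or Schwann cell marker was called at any day after injury.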

Additional observations from a re-analysis of the deposited data

Results flagged for a closer look

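In Nmrk1 at day 21, replicate 5 stood apart at 2.52 FPKM (94 reads), with the next sample at 1.78 FPKM. It was 1 of 35 sets of a member and a group that were checked in this way, and chance alone would mark about 1 in 20.

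The effect of injury differed between days 21 and 3 for 4 members by the test of the difference itself (limma, log2 scale). Nmrk1 was 0.42 higher at day 21 than at day 3 (adjusted p = 0.00985), and Nmnat3 was 0.72 higher (adjusted p = 3.65e-04). Nadk was lower, at -0.61 (adjusted p = 0.0152), and so was Nnmt, at -1.11 (adjusted p = 0.00258). The calls of Nmrk1 and Nmnat3 were lost on a common FPKM sum (0.05, adjusted p = 0.845, and 0.29, adjusted p = 0.209), and that of Nmrk1 also on own read totals. The call of Nadk was lost without day 3 replicate 4 (-0.52) or day 21 replicate 4 (-0.50). Both comparisons share the uninjured samples, which drop out of this difference.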

How the results depend on the processing

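Of 420 values of single members against uninjured muscle, 28 under 15 alternatives each without the single left-out samples, 375 kept direction and side of the threshold, 16 lost the call, 18 gained it and 11 turned direction; the cause was not tested. Median-ratio scaling was among these alternatives and repeats the scaling of the deposited values, so its results were fixed in advance. Changes of the filter could alter the adjusted p but not a difference or its direction. Counts of members called moved as follows. On a common FPKM sum they were 3 at day 3, 1 at day 14, 0 at day 21 and 2 for day 21 against day 3, and on own read totals 0 at day 21. With sample quality weights they were 4 at day 14, 4 at day 21 and 3 for day 7 against day 3, and with only the 2 groups compared 3 at day 21. Without day 3 replicate 5 and day 7 replicate 5 together, 4 were called between days 7 and 3. Counts of the other NAD genes were 11 at day 7 and 0 at day 21 with no filter; 9 and 6 with only the 2 groups compared; 7 at day 14 and 0 at day 21 on a common sum; 0 at day 21 on own totals; 18 at day 14 and 12 at day 21 with quality weights; and 2 at day 21 without both stated samples. Single left-out samples gave 6 to 7, 5 to 6, 2 to 3 and 1 to 1 members (days 3, 7, 14 and 21), 0 to 2 for day 7 against day 3 and 3 to 5 for day 21 against day 3, and 0 to 2 other NAD genes at day 21, where the count became 0 without uninjured replicates 1, 2, 4 or 5 or day 21 replicates 2 or 5, and 2 without day 21 replicate 4. Between days 7 and 3, 1 member was called without day 3 replicate 5 and 2 without day 7 replicate 5.

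Directions turned for small differences. Against uninjured muscle, Nmrk1 was 0.22 (common sum) and 0.13 (own totals) at day 3, -0.078 at day 7 and -0.11 at day 14 after quantile normalization, and -0.046 at day 14 with quality weights. Nmnat3 was 0.022, 0.069 and 0.022 at days 7, 14 and 21 on a common sum, and 0.0092 and 0.021 at days 14 and 21 on own totals. Nampt for day 7 against day 3 was -0.082 (common sum), -0.096 (own totals) and -0.12 (quality weights), and -0.044 for day 14 against day 7 (common sum). For day 21 against day 14 a common sum gave -0.030 for Nmrk1, -0.047 for Nmnat3 and -0.088 for Nnmt, and own totals -0.029 for Nnmt. For day 21 against day 3 a common sum gave -0.063 for Nmrk2, -0.096 for Nampt and -0.077 for Nmnat1. Single left-out samples gave -0.029 to 0.073 for Nmrk1 at day 14, -0.14 to 0.19 for Nampt for day 7 against day 3, and -0.16 to 0.023 for Nmnat1 and -0.048 to 0.23 for Nnmt for day 21 against day 14.

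Pairing by replicate number was checked between groups only. There 51 pairs of samples with the same number had correlated deviations from -0.52 to 0.57 (median -0.0031), 15 of them over 0.1. The median was 0.0029 in 240 pairs with different numbers. Whether samples within a group share an animal was not examined. With the number as a replicate block, 7, 6, 3 and 1 members were called at days 3, 7, 14 and 21, with 2 other NAD genes at day 21; Nmrk1 at day 14 was -0.0080, Nampt for day 7 against day 3 -0.022 and Nmnat1 for day 21 against day 14 0.023. With the letter in the labels as replicate block, 2 members and 5 other NAD genes were called at day 21, and Nampt for day 7 against day 3 was -0.00097. Few reads limit Nmrk1 and Nnmt (48 and 21 in their lowest samples).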
